A study of Mus musculus with 4 samples.

Results

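Ada, Nt5e, Slc28a2, Egfr, Klf4 and Pkib are 6 of the 32285 genes counted in single cells of the mouse small intestine, chosen as a group of purine enzymes, a purine transporter and regulators that had been named together for the villus tip. They were followed across enterocytes ordered from the base to the tip of the villus, across 4 libraries and across the other cell classes in the same data. An enterocyte was taken as a barcode with at least 500 UMIs and 250 genes, at most 25% mitochondrial UMIs, at least 0.5% of its UMIs from Fabp1, the fatty acid binding protein of absorptive cells, and no UMI of the leukocyte gene Ptprc. These limits kept 18023 cells out of 25788 barcodes that passed the quality limits and 44277 barcodes in all. A UMI is a tag that marks 1 captured RNA molecule, and levels are given as CPM, the UMIs of a gene for each 1000000 UMIs of the same cells.

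The study fed male C57BL/6J mice for 7 weeks from an age of 8 weeks and took the epithelium of jejunum and ileum at 15 weeks, with the Peyer's patches cut away. The IPA diet group received 562.5 mg of indole-3-propionic acid, a bacterial product of tryptophan, per kg of diet, and the control diet group received the same regime without it; both groups were on a high-fat diet with the nitric oxide synthase inhibitor l-NAME. Each group has 2 samples and each sample pooled 2 mice, so that single mice cannot be separated; live cells were sorted as DAPI-negative before droplet capture with 3′ chemistry. The cells of the 4 samples lie in 1 matrix and carry suffixes 1 to 4, which are called libraries 1 to 4 here; neither the labels nor the headers say which suffix is which sample, so the diets are not compared and libraries are described one by one, with no test across them.

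Adenosine outside cells is made when ectoenzymes strip phosphates from ATP, and Nt5e (CD73) takes the last step from AMP. Slc28a2 (CNT2) carries purine nucleosides into the cell together with sodium, and Ada (adenosine deaminase) turns adenosine into inosine, which is broken down further to urate or returned to nucleotides. In the small intestine these steps handle nucleosides from food and from shed cells, and adenosine also acts on receptors of epithelial and immune cells. Klf4 is a zinc finger transcription factor of non-dividing epithelial cells and of goblet cells, Egfr is the receptor for epidermal growth factor and related ligands, and Pkib is a small inhibitor protein of the cAMP-dependent protein kinase PKA.

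The promoters of Ada, Slc28a2 and Klf4 are shown because their summed levels were highest in enterocytes at the same end of the villus. The first pair also belongs to a common route of purine uptake and breakdown. Each line gives the 250 bases before the RefSeq gene start in build GRCm38.p6, read 5′ to 3′ on the gene's strand, for Ada at chr2:163750240-163750489 on the minus strand, for Slc28a2 at chr2:122426185-122426434 on the plus strand and for Klf4 at chr4:55532476-55532725 on the minus strand. Capitals mark CACCC, the core to which KLF proteins are known to bind, or TGACG, a core of cAMP response elements, on either strand; the marked letters in Ada and Slc28a2 are GGGTG, the reverse complement of CACCC, and those in Klf4 are CGTCA, the reverse complement of TGACG.
Ada: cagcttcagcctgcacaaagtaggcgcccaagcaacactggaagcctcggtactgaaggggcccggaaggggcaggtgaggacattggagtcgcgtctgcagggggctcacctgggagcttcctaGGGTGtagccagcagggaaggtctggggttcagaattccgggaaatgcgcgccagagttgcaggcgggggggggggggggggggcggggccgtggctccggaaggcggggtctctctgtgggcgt
Slc28a2: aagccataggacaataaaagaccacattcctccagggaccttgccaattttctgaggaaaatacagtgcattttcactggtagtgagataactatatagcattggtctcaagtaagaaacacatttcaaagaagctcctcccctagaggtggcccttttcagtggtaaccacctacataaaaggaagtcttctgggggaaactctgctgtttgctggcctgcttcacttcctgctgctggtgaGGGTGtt
Klf4: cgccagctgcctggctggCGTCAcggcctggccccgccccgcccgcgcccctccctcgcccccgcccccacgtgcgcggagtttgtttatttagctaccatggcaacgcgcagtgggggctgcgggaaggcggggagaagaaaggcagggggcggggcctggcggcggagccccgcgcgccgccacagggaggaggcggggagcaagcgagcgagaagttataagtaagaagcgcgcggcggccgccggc
CACCC begins 125 bases before the start in Ada and 7 bases before it in Slc28a2, and the Klf4 window holds none. A match to these letters is common: 52.0% of the 32851 RefSeq windows of this length hold CACCC, and 17.8% hold TGACG, which begins 232 bases before the start in Klf4. All 6 genes matched a RefSeq window, and Nt5e had 4 matches to CACCC, where 2.14% of windows hold at least 4, Egfr had 1 and Pkib had 0. None of the 6 windows held the AP-1 type TGANTCA, which 6.75% of windows hold, the HNF4 type CAAAGTCCA, held by 0.384%, or the CDX type TTTATGG, held by 2.43%. The matches describe the letters of these windows and say nothing of binding. The windows of Nt5e, with 72% G and C, Klf4, with 74%, and Ada, with 67.2%, were richer in G and C than the median window of 52.4%, and that of Slc28a2, with 45.2%, was poorer.

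In GENCODE annotation of the same assembly, Ada lies on chromosome 2 at 163726584-163750239, Nt5e on chromosome 9 at 88327197-88372092, Slc28a2 on chromosome 2 at 122426477-122461137, Egfr on chromosome 11 at 16752203-16918158, Klf4 on chromosome 4 at 55527143-55532466 and Pkib on chromosome 10 at 57631981-57741112. All 6 are protein-coding genes. Egfr overlaps the antisense gene Egfros, which had 28 UMIs in all enterocytes, and Slc28a2 overlaps Gm14086, which has no entry in the matrix. The neighbouring paralog Slc28a2b was at 0 UMIs.

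Libraries 1 to 4 held 4404, 5338, 3099 and 5182 of the enterocytes, with median depths of 30337, 28249, 31805 and 26726 UMIs per cell. Enterocytes were put in 6 bins by the share of their UMIs from Apoa4, an apolipoprotein gene whose level is known to increase towards the villus tip. The highest bin, with Apoa4 at 4% of UMIs and over, held 694, 135, 379 and 367 cells in libraries 1 to 4, and the lowest bin, under 0.1%, held 268, 907, 359 and 437 cells. Library 2 stood apart with 2.53% of its enterocytes in the highest bin, against 7.08% to 15.8% in the others. Cells of the highest bin were shallower, with median depths of 10138 to 12155 UMIs against 27070 to 35054 in the lowest bin, and had more mitochondrial RNA, with medians of 11.99% to 15.0% against 7.90% to 8.87%. Genes not used for the bins followed the villus order: the tip gene Krt20 was at 2429 to 3541 CPM in the highest bin against 258 to 347 in the lowest, and the division gene Mki67 was at 0.995 to 1.48 against 61.8 to 93.7. The low bins also held RNA of Paneth cells, unevenly over libraries. The sum of 8 Paneth markers was 129 to 5833 CPM in the lowest bin. It was 524 to 8547 in the bin at 0.1 to 0.3% and 315 to 823 in the highest. The part of this RNA in the levels of the low bins was not tested. Libraries shared 214 barcode sequences out of 44063, of which 37 were among enterocytes.

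Nt5e, the maker of adenosine, had a summed level near 0 over most of the villus and was found in a minority of cells at its upper end. A UMI of Nt5e was found in 15.9%, 11.9%, 15.8% and 19.9% of cells of the highest bin in libraries 1 to 4. In the deeper cells of the lowest bin it was found in 3.73%, 0.221%, 10.3% and 3.20%. In the 6 bins from low to high Apoa4, library 1 had 1.03, 0.349, 1.71, 3.23, 9.14 and 102 CPM of Nt5e, library 2 had 0.0741, 0.0516, 0.512, 3.66, 18.4 and 88.2, library 3 had 2.78, 2.28, 3.99, 5.40, 9.03 and 43.4, and library 4 had 1.11, 0.628, 0.800, 2.62, 8.38 and 106. The highest bin thus stood above every other bin in each library, and library 3 had both the highest level at the base and the lowest at the tip. The difference between the highest and the lowest bin was 99.1-fold in library 1 (95% counting interval 53.6 to 207), 1190-fold in library 2 (322 to 9942), 15.6-fold in library 3 (11.1 to 22.6) and 95.03-fold in library 4 (57.1 to 171). These ratios rest on 821, 120, 209 and 501 UMIs in the highest bin and 10, 2, 39 and 15 UMIs in the lowest, so the size in library 2 is poorly fixed. Intervals here and below are exact and cover counting error only, not differences between mice or the gathering of UMIs in few cells.

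Slc28a2, the uptake transporter, followed the same course. A UMI of it was found in 18.6%, 14.8%, 17.4% and 24.8% of cells of the highest bin. In the deeper cells of the lowest bin the shares were 7.09%, 1.65%, 16.4% and 3.66%. Slc28a2 levels from the lowest to the highest bin were 2.06, 1.86, 2.51, 3.90, 13.3 and 146 CPM in library 1, 0.593, 0.516, 0.747, 4.17, 14.5 and 104 in library 2, 4.35, 4.79, 4.99, 9.02, 18.1 and 70.8 in library 3, and 1.34, 2.09, 1.27, 2.34, 9.49 and 154 in library 4. The counting intervals of the 3 lowest bins overlapped in every library, and the step came at the upper end. The highest bin was 71.0-fold above the lowest in library 1 (45.8 to 117), 176-fold in library 2 (105 to 316), 16.3-fold in library 3 (12.4 to 21.8) and 115-fold in library 4 (72.5 to 196).

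Ada, the adenosine-degrading enzyme, gave the most UMIs of the 6 at the tip. From the lowest to the highest bin it had 34.7, 33.0, 36.1, 67.0, 379 and 4034 CPM in library 1, 7.56, 7.85, 8.70, 27.5, 563 and 3495 in library 2, 41.0, 43.7, 62.6, 94.6, 212 and 1928 in library 3, and 24.2, 27.7, 26.7, 51.1, 271 and 4577 in library 4. The highest bin was 116-fold above the lowest in library 1 (104 to 130), 462-fold in library 2 (402 to 535), 47.0-fold in library 3 (43.2 to 51.2) and 189-fold in library 4 (170 to 212). Most of this lay in the last 2 steps: the 2 to 4% bin was 2.24 to 20.5 times the 1 to 2% bin, and the highest bin was 6.21 to 16.9 times the 2 to 4% bin. From the lowest bin to the 0.3 to 1% bin the ratio was 1.04 to 1.52. Within the highest bin the increase went on: in library 1 the level was 1975 CPM in cells with Apoa4 at 4 to 5%, 6253 at 6 to 8% and 13067 in the 36 cells at 8% and over, and in library 4 it was 1477 at 4 to 5% and 12881 in the 33 cells at 8% and over. Mitochondrial RNA was higher in the highest bin, and with a limit of 15% on it the median log2 ratio over the 4 libraries was 7.44 for Ada, 6.69 for Nt5e and 6.66 for Slc28a2, against 7.21, 6.60 and 6.50 without.

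The low levels at the base could not be told from free RNA. Stem-like cells, which are not part of the villus, had 49.4, 11.4, 50.4 and 34.1 CPM of Ada in libraries 1 to 4, above the level of the lowest bin in each. After every cell was thinned to 2000 UMIs, an Ada UMI was found in 71.8%, 66.7%, 55.9% and 68.1% of cells of the highest bin against 4.92%, 1.43%, 9.24% and 4.91% of the lowest, and in 6.93%, 1.76%, 9.33% and 5.80% of stem-like cells. Without thinning the shares were 90.1%, 80.7%, 87.6% and 88.6% in the highest bin against 69.8%, 18.0%, 77.4% and 49.4% in the lowest, where the cells were deeper. Slc28a2 was at 2.65, 1.62, 6.06 and 1.86 CPM and Nt5e at 1.03, 0.162, 3.08 and 0.465 CPM in stem-like cells, in the same range as in the lowest bin. A fold over the lowest bin is therefore, for these 3 genes, a fold over a level in the range of stem-like cells. The part of free RNA in that level was not tested.

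Klf4, the transcription factor, had a different shape, with its increase spread over the whole villus. Its levels from the lowest to the highest bin were 22.4, 34.9, 80.2, 214, 394 and 634 CPM in library 1, 20.8, 61.1, 82.0, 205, 395 and 574 in library 2, 32.4, 54.0, 82.3, 182, 326 and 433 in library 3, and 23.3, 56.5, 71.4, 168, 372 and 582 in library 4. Each bin was above the one before it in all 4 libraries. The 0.3 to 1% bin was already 2.54 to 3.95 times the lowest, where Ada had changed by at most 1.52, and the last step from the 2 to 4% bin was 1.33 to 1.61. The highest bin was 28.3-fold above the lowest in library 1 (24.7 to 32.6), 27.6-fold in library 2 (24.7 to 30.8), 13.4-fold in library 3 (12.1 to 14.8) and 24.9-fold in library 4 (22.2 to 28.1). Goblet cells are the other main site of Klf4, and 7 goblet markers, all with a UMI in every bin and library, summed from the lowest to the highest bin to 860 to 3101, 2347 to 3306, 681 to 2337, 462 to 1183, 440 to 1194 and 349 to 762 CPM. Their sum was thus higher in the 0.1 to 0.3% bin than in the lowest in every library, as Klf4 was, and lower in each later bin than in the 0.1 to 0.3% bin; the part of goblet cell RNA in the first step of Klf4 was not tested.

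Fabp6, the ileal bile acid binding protein, marked cells in which Klf4 was already high at low Apoa4. In the lowest bin, cells with Fabp6 at 0.1% of UMIs and over had 154, 186 and 168 CPM of Klf4 in libraries 2, 3 and 4, from 35, 31 and 24 cells, against 16.6, 21.6 and 16.9 in the other cells of the bin. In the 0.1 to 0.3% bin they had 204, 277 and 234 CPM, from 54, 24 and 28 cells, against 50.0, 36.0 and 44.1 in the others. Library 1 had under 20 such cells in either bin. The samples hold jejunum and ileum together, and the low end of the Apoa4 order holds cells with and without Fabp6. Among cells with Fabp6 under 0.1%, each bin still had more Klf4 than the one before it in all 4 libraries, and the median log2 ratio of the highest to the lowest bin was 5.11, against 4.71 for all cells.

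Egfr, the growth factor receptor, was sparse and highest at both ends. From the lowest to the highest bin it had 6.29, 3.03, 2.93, 2.55, 4.26 and 9.70 CPM in library 1, 5.04, 2.74, 2.42, 2.46, 2.07 and 6.62 in library 2, 6.41, 2.40, 3.34, 2.36, 3.76 and 5.81 in library 3, and 4.98, 3.03, 2.75, 2.05, 2.91 and 8.25 in library 4. The lowest bin and the highest bin both exceeded every bin between them in each library. Against the 0.3 to 1% bin the highest was 3.31-fold higher in library 1 (2.46 to 4.44), 2.73-fold in library 2 (1.23 to 5.31), 1.74-fold in library 3 (1.08 to 2.74) and 3.00-fold in library 4 (2.03 to 4.36). Against the lowest bin the ratio was 1.54 (1.09 to 2.19), 1.31 (0.588 to 2.57), 0.907 (0.571 to 1.40) and 1.66 (1.09 to 2.49), so that the ends could not be ordered in libraries 2 and 3; the highest bin rests on 78, 9, 28 and 39 UMIs. The median log2 ratio of these ends over libraries was 0.51, and it was -0.079 with each cell weighted equally, so its direction is not fixed. The lowest bin also had more RNA of dividing cells, with 8 cycling markers at 75.0 to 107 CPM in the highest bin against 861 to 1295 in the lowest, and the part of those cells in its Egfr level was not tested.

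Pkib went against the naming of this set for the villus tip. Libraries 1 to 4 held 5, 1, 20 and 12 UMIs of Pkib in all enterocytes, or 0.0414, 0.00685, 0.222 and 0.0873 CPM. In the highest bin there were 1, 0, 1 and 0 UMIs, and the counts of 0 allow up to 2.21 CPM in library 2 and 0.634 in library 4. At this level no order over the bins can be read for this kinase inhibitor in enterocytes.

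**Figure D1:**
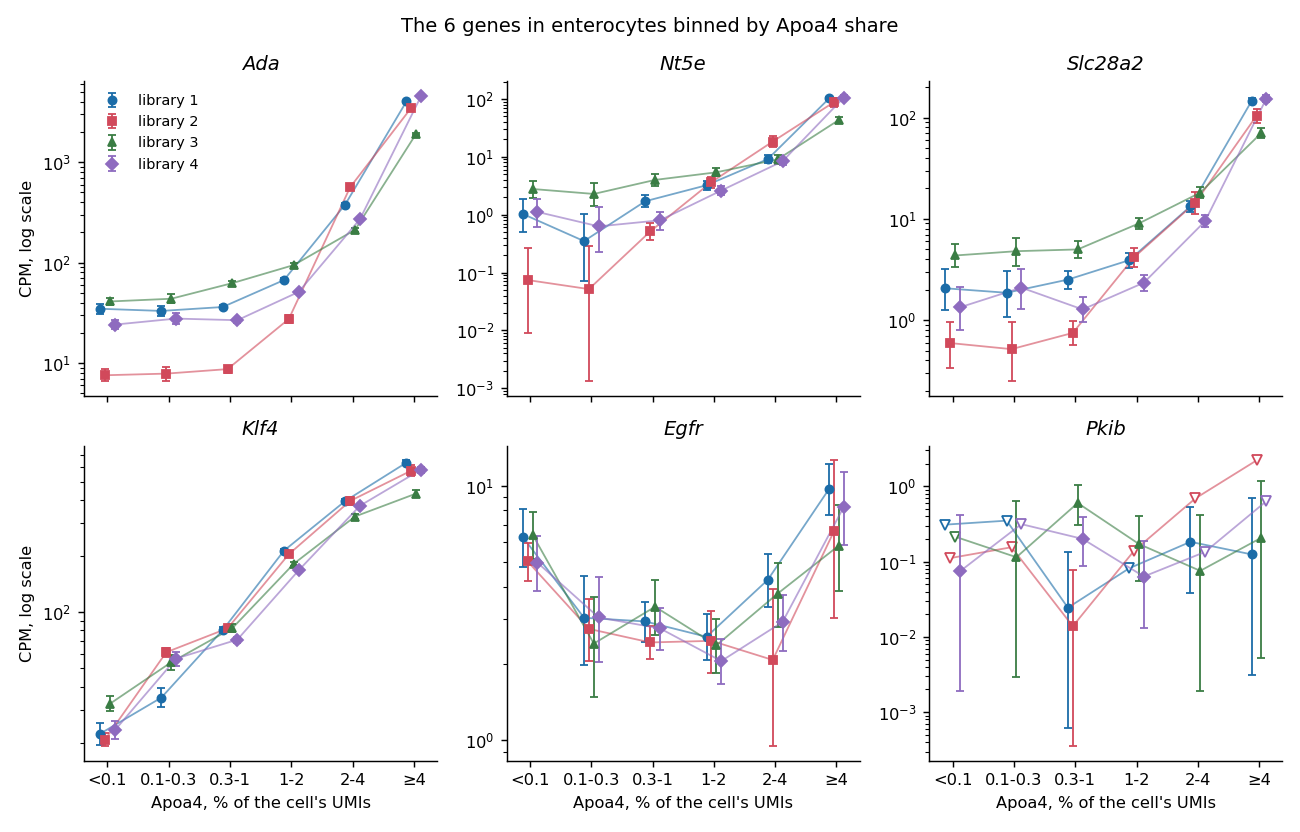
Level of each gene (CPM, log scale) in enterocytes of each library, against the bins of Apoa4 share in percent of the cell's UMIs. Points are the libraries, bars are exact 95% Poisson intervals and open triangles mark the limit that a count of 0 allows (3 counts). Ada, Nt5e and Slc28a2 turn upwards in the last 2 bins, Klf4 climbs through all 6, Egfr is high at both ends and Pkib stays close to its limit of detection.

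Among the 6648 genes with a mean of at least 10 CPM over bins and libraries, 867 or 13.0% were at least 2-fold higher in the highest than in the lowest bin in each of the 4 libraries, and 1679 or 25.3% were at least 2-fold lower. Ada, Nt5e, Slc28a2 and Klf4 were among those higher, and Egfr and Pkib lay under the mean of 10. Ranked by the median over libraries of the log2 ratio with 1 CPM added, Ada was 3rd of the 6648 at 7.16, Slc28a2 was 14th at 5.82, Nt5e was 16th at 5.66 and Klf4 was 38th at 4.65, while the median of all 6648 was -0.29.

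Over the highest bin as a whole the 3 purine genes stood in similar proportions in the 4 libraries. There were 3.63, 2.99, 3.67 and 3.37 UMIs of Slc28a2 and 2.53, 2.52, 2.25 and 2.31 UMIs of Nt5e per 100 of Ada in libraries 1 to 4. In the 2 to 4% bin Slc28a2 was at 3.50, 2.57, 8.56 and 3.51 and Nt5e at 2.41, 3.26, 4.26 and 3.10 per 100 of Ada, with library 3 apart from the others. Klf4 was at 15.7, 16.4, 22.4 and 12.7 per 100 of Ada in the highest bin, and at 104, 70.1, 154 and 137 in the 2 to 4% bin. The proportions also differed inside the highest Apoa4 range by Fabp1, the gene of the enterocyte limit: cells under 0.5% Fabp1 had 5.47 to 7.75 UMIs of Nt5e and 6.42 to 8.83 of Slc28a2 per 100 of Ada, and cells at 1 to 2% had 1.23 to 3.10 and 2.38 to 3.39. The bin with the highest Apoa4 held 75.0%, 54.1%, 54.3% and 68.1% of the Ada UMIs of enterocytes, 70.0%, 37.6%, 33.4% and 57.9% of those of Nt5e and 70.1%, 37.9%, 32.5% and 63.9% of those of Slc28a2. It held 21.9%, 5.35%, 14.6% and 12.1% of Klf4 UMIs and 17.4%, 2.07%, 8.62% and 9.58% of Egfr UMIs. Of the UMIs of all genes in enterocytes this bin held 6.67%, 0.932%, 5.34% and 3.44% in libraries 1 to 4.

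Cells of the same Apoa4 range differed widely in Ada. In the highest bin the median cell had 0.141%, 0.140%, 0.0317% and 0.165% of its UMIs from Ada, while the cell at the 90th percentile had 1.02%, 0.964%, 0.620% and 1.35%. With a limit at 0.1% of UMIs, 55.0%, 55.6%, 33.5% and 55.6% of cells in the highest bin were Ada-high, as were 8.85%, 9.93%, 13.5% and 5.54% in the 2 to 4% bin and 1.88%, 0.8999%, 6.39% and 0.816% in the 1 to 2% bin. Shallow cells raise this share in library 3: among cells with at least 2000 UMIs in the 2 to 4% bin it was 8.00%, 8.93%, 3.82% and 5.46%, so library 3 was the lowest there and the highest without that limit. The limit cuts through a range of values, as 15.8% to 24.4% of cells of the highest bin lay within 2-fold of it. Whether Ada-high cells form a type of their own was not tested.

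Summed over cells, Nt5e and Slc28a2 were higher in Ada-high than in Ada-low cells of 1 Apoa4 range. In the 2 to 4% bin, Nt5e was at 76.7, 165, 111 and 123 CPM in Ada-high cells, against 2.48, 0.515, 4.03 and 1.19 in Ada-low cells, and the ratio was 31.0 (21.2 to 46.2), 320 (85.7 to 2690), 27.7 (19.0 to 40.5) and 104 (67.7 to 165). Slc28a2 was at 110, 112, 187 and 129 in Ada-high cells, against 3.75, 2.58, 9.87 and 2.05 in Ada-low cells, or 29.3, 43.5, 19.0 and 62.8 times as high. For both genes the Ada-high and Ada-low levels did not overlap. An Nt5e UMI was found in 20.0%, 20.7%, 16.7% and 36.4% of Ada-high cells and 2.51%, 0.76%, 6.70% and 1.92% of Ada-low cells. For Slc28a2 the shares were 29.4%, 27.6%, 16.7% and 45.5% against 5.26%, 1.14%, 13.8% and 3.09%. Most Ada-high cells thus held no UMI of Nt5e, and most held none of Slc28a2, at the depth they had. Klf4 differed by less, with every counting interval above 1, at 553, 535, 494 and 451 in Ada-high cells against 379, 378, 318 and 367 in Ada-low cells, or 1.23 to 1.56 times as high. Egfr was at 8.14, 2.11, 9.69 and 4.56 in Ada-high cells against 3.88, 2.06, 3.47 and 2.81 in Ada-low cells, from 12, 1, 6 and 6 UMIs in the Ada-high cells, and the counting interval of the ratio included 1 in libraries 2, 3 and 4.

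These groups were 85, 29, 84 and 55 Ada-high cells, and their median Apoa4 share was 3.15%, 3.32%, 2.62% and 3.24%, against 2.81%, 2.61%, 2.64% and 2.60% in Ada-low cells, so Apoa4 was matched closely in library 3 alone. In library 3 the median Ada-high cell had 664.5 UMIs, at which a single Ada UMI passes the limit. Among cells with at least 2000 UMIs, where it takes at least 2, the ratios were 29.2 to 322 for Nt5e, 20.1 to 61.7 for Slc28a2 and 1.23 to 1.61 for Klf4.

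**Figure D2:**
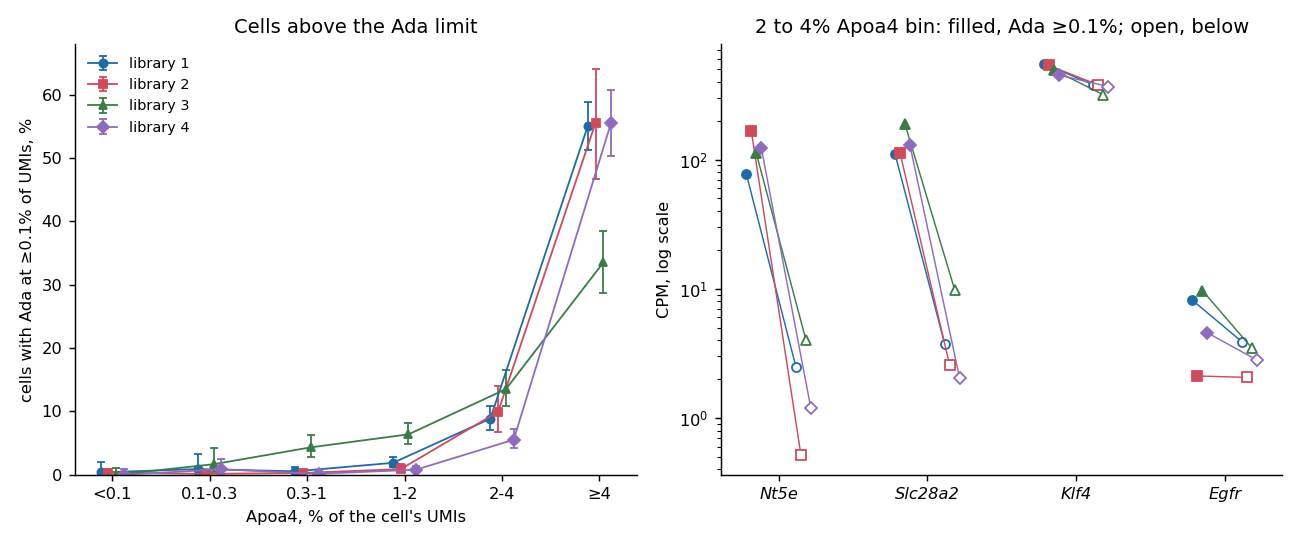
Left, percent of enterocytes with Ada at 0.1% of UMIs and over in each Apoa4 bin and library, with exact 95% binomial intervals. Right, levels (CPM, log scale) in the 2 to 4% Apoa4 bin in Ada-high cells (filled) and Ada-low cells (open) of each library: Nt5e and Slc28a2 are 19.0 to 320 times as high in Ada-high cells, and Klf4 1.23 to 1.56 times.

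Cells with high Apoa4 were then divided by Fabp1, the gene of the enterocyte limit, including 299, 40, 334 and 230 cells that fell under that limit and so are not among the 18023. From Fabp1 under 0.5% through 0.5 to 1% and 1 to 2% to 2% and over, Ada was at 11806, 5494, 3605 and 1942 CPM in library 1, 13771, 6632, 2382 and 718 in library 2, 9394, 2495, 1678 and 403 in library 3, and 12891, 8053, 3741 and 1618 in library 4. Nt5e was at 649 to 753 in the cells under the limit and at 0 to 50.0 in those at 2% and over, and Slc28a2 at 758 to 955 and at 0 to 70.8; the counts of 0 were in the 23 cells of library 2 and allow up to 9.88. For all 3 genes the level was highest where Fabp1 was lowest in every library. Egfr also stood out in the cells under the limit, at 36.9, 39.4, 42.2 and 45.5, against 9.24, 12.6, 4.87 and 10.3 at Fabp1 of 0.5 to 1%.

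Klf4 varied less along this order, at 731 to 1039 CPM under the limit and 316 to 515 at 2% and over. Mitochondrial RNA moved along with it: its median was 16.6% to 18.1% of UMIs in the cells under the limit and 8.01% to 13.1% in those at 2% and over. Apoa4 moved with it too, at medians of 6.50%, 6.20%, 6.26% and 6.68% under the limit and 4.59%, 4.62%, 4.61% and 4.41% at 2% and over, so these are not cells of equal Apoa4. The part of either in these levels was not tested. The cells under the limit held 39.4%, 33.5%, 53.4% and 41.0% of the Ada UMIs of all barcodes past the quality limits, and the enterocytes as defined held 54.9%, 56.1%, 29.0% and 56.0%. The enterocyte limit therefore leaves out the cells richest in the purine genes, and the levels at the tip given above are those of the cells that stay above it.

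**Figure D3:**
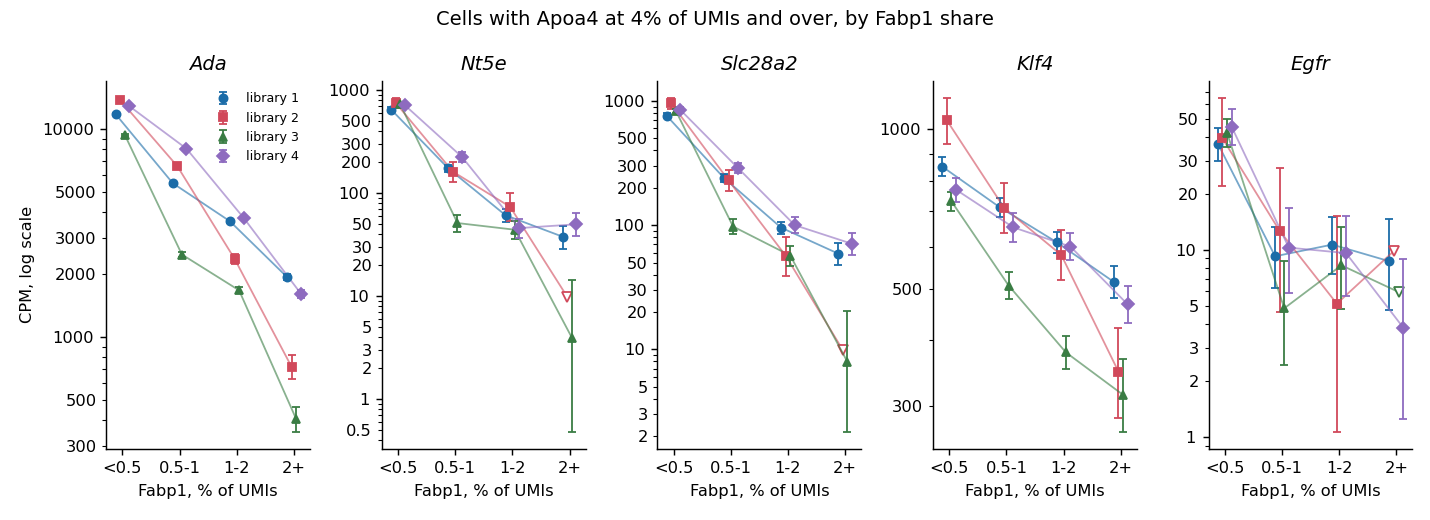
Level of 5 genes (CPM, log scale) in cells with Apoa4 at 4% of UMIs and over, by the share of Fabp1 in percent of UMIs, in each library with exact 95% Poisson intervals; open triangles mark the limit of a count of 0. Ada, Nt5e, Slc28a2 and Egfr are highest under 0.5% Fabp1, with Ada at 9394 to 13771 there, and Klf4 spans a narrower range.

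Clustering without the 6 genes set 2 enterocyte-like clusters apart that held such cells. One, of 908 cells, was led by Ly6m and Clca4a, and 72.7% of its cells had Apoa4 at 4% and over. It had 8706 CPM of Ada, 543 of Nt5e, 659 of Slc28a2, 34.7 of Egfr and 831 of Klf4. Libraries 1 to 4 gave 83, 90, 370 and 365 of its cells, and cluster levels here and below are pooled over libraries. The other, of 763 cells with 82.6% at 4% and over, had 6328 of Ada, 222 of Nt5e, 283 of Slc28a2 and 748 of Klf4, and 693 of its cells came from library 1, so that it may be a feature of that library. The other enterocyte-like clusters had Ada at no more than 1075.

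Libraries differed more over all enterocytes than they did with each stretch of the villus given the same weight, for every gene but Egfr and Pkib. With the 6 Apoa4 bins weighted equally, Ada was at 764, 685, 397 and 830 CPM in libraries 1 to 4, and over all enterocytes at 358, 60.2, 189 and 231. The highest library was 2.09 times the lowest with equal weights and 5.96 times over all cells, and without the Fabp1 limit the value with equal weights was 1.27. For Slc28a2 these ratios were 1.52 and 5.41, for Nt5e 1.79 and 4.45, with 7.78 over all cells without the Fabp1 limit, and for Klf4 1.24 and 1.93. Library 2, with the fewest cells in the highest bin, was the lowest of the 4 over all enterocytes for these 4 genes, and with equal weights library 3 was. Egfr varied by 1.35 with equal weights and by 1.26 over all cells.

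**Figure D4:**
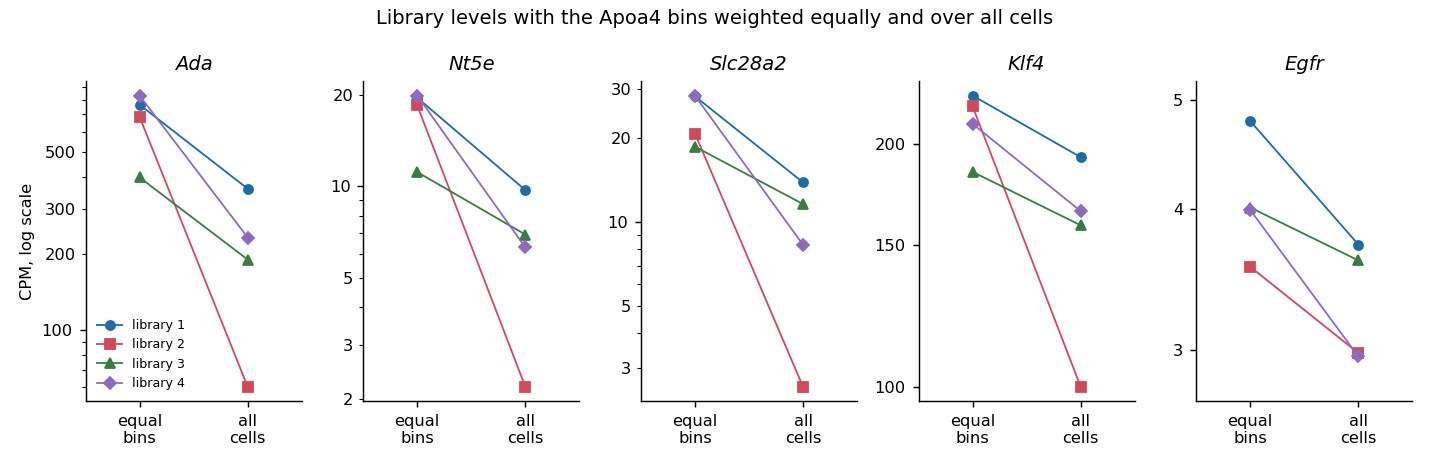
Level (CPM, log scale) of 5 genes in each library with the 6 Apoa4 bins weighted equally (left) and over all enterocytes (right). The spread of Ada between libraries is 2.09-fold on the left and 5.96-fold on the right, and library 2 is the lowest on the right for Ada, Nt5e, Slc28a2 and Klf4.

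Other genes of the same routes were taken from 9 lists, counted by the call of at least 2-fold in every library. Of 6 measured genes for the breakdown of nucleotides outside the cell, 5 were higher in the highest bin and 0 lower, Nt5e included, with a median log2 ratio of 2.87, against 13.0% higher, 25.3% lower and a median of -0.29 over all 6648 genes. Dpp4, a peptidase that the list also held, was higher as well and is not counted; it was taken out after its values were seen, for its substrate. Enpp3, an ectonucleotide pyrophosphatase, had 1105, 1061, 1025 and 862 CPM in the highest bin, against 7.42, 2.74, 11.5 and 3.72 in the lowest. Entpd8, which removes phosphates from ATP and ADP, and Alpi, the intestinal alkaline phosphatase, had median log2 ratios of 2.90 and 2.85. Without Nt5e, 4 of 5 were higher, at a median of 2.85.

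Nucleoside carriers split by family member. Slc28a1, the carrier that prefers pyrimidine nucleosides, was at 67.4, 71.3, 96.3 and 61.1 CPM in the highest bin against 10.1, 9.82, 14.5 and 10.9 in the lowest. Slc28a3, which takes both kinds of nucleoside, had the opposite order, at 1.24, 0.735, 0.415 and 1.27 in the highest bin against 27.8, 29.9, 23.4 and 25.6 in the lowest. Of 3 measured carriers 2 were higher, Slc28a2 among them, and 1 lower, against 13.0% and 25.3% of all genes. Without Slc28a2, 1 of 2 was higher and 1 lower.

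Inside the cell, 4 of 12 measured genes of purine breakdown and salvage were higher and 2 were lower, with a median log2 ratio of 0.21, against 13.0% and 25.3% of all genes. The pyrimidine enzymes Cda, Uck1, Upp1 and Nt5c3, of which Nt5c3 was lower, were taken out of this list after their values were seen. The genes of breakdown Gda (guanine deaminase), Xdh (xanthine dehydrogenase) and Nt5c2 (a cytosolic nucleotidase) had median log2 ratios of 3.70, 3.47 and 2.02, and Ada was the fourth. Adk, the kinase that returns adenosine to AMP, was lower, at -1.79. Of 4 measured genes of purine synthesis 0 were higher and 3 lower, against 13.0% and 25.3% of all genes, at a median of -3.19, with Impdh2, the enzyme that opens the branch to guanine nucleotides, at -4.85. Of 2 measured purine receptors, 0 passed the call in either direction.

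The lists around the regulators had shares of called genes close to those of all genes, 13.0% higher and 25.3% lower, except that around EGFR. Of 10 measured genes around EGFR, 3 were higher and 0 lower, at a median log2 ratio of 0.63; Dusp6, a phosphatase that acts on ERK, had 3.65 and Errfi1, an inhibitor of the receptor, had 2.64. Among 8 measured KLF genes Klf4 was the only one higher and 2 were lower, at a median of -0.41, with Klf5, known from dividing crypt cells, at -2.26. Among 10 measured genes of PKA, its inhibitors, its anchor proteins and CREB factors, 1 was higher and 2 lower, at a median of -0.17. Creb3l3, a transcription factor of the CREB family, had 1.80 and Pkig, a paralog of Pkib, had -1.71. Of 9 immediate early genes 1 was higher and 2 lower, at a median of 0.02, and Egr1 had -2.09. In every list, as for all genes, the call asks for the same 2-fold difference in each library.

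The genes whose levels over the 24 points of 6 bins in 4 libraries were most like each member, by Pearson correlation of log2 levels with 10 CPM added, are given as a description, since the points share libraries, depth and the Apoa4 order. For Ada they were Clca4a, with r of 0.986, Aff4 with 0.983 and Ly6m with 0.981. For Nt5e they were Cldn4 with 0.986, Pgm2 with 0.984 and Gprc5a with 0.981, and for Slc28a2 Cldn4 and Pgm2 with 0.981 each and Nt5c2 with 0.978. For Klf4 they were Fuca2 with 0.994, Mpp5 with 0.991 and Clca4b with 0.990, and for Egfr Prkci with 0.940, Cerk with 0.917 and Plekha6 with 0.909. Among the members, r was 0.992 between Nt5e and Slc28a2, 0.966 between Ada and Nt5e, 0.850 between Ada and Klf4 and 0.217 between Klf4 and Egfr. No gene is named for Pkib, whose counts were too sparse.

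Outside enterocytes the 6 genes parted. Cells past the quality limits were clustered without the 6 genes and named from marker genes, and a class is given in a library with at least 20 of its cells, which the T-like, B-like, macrophage-like and plasma-like classes reached in libraries 1 and 3, the Paneth-like class in libraries 2 and 3 and the tuft-like class in library 1. Names come from rebuilt clusters, and a low level can be free RNA from enterocytes. The macrophage-like class of 115 cells was led by genes that included the macrophage markers Lyz2, C1qa and C1qb and the mast markers Mcpt1 and Mcpt2. It may be a mixture, so its levels of Ada and Pkib cannot be given to macrophages alone. As a yardstick, a class was also given the level it would have if all of its Ada UMIs were free RNA in enterocyte proportions.

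For Nt5e the highest average of a whole class was that of T-like cells, at 138 and 140 CPM in libraries 1 and 3, from 172 and 717 UMIs, against 3.39 and 10.4 by the yardstick. Enteroendocrine-like cells followed at 70.5, 55.5, 123 and 34.7, against 3.92, 1.02, 36.2 and 1.17, and overlapped the enterocyte-like class, which had 24.0, 4.28, 38.0 and 17.7 over all of its cells and 543 and 222 in its clusters of 908 and 763 cells described above. Because enterocyte-like cells were so many, they held 78.1% of the Nt5e UMIs past the quality limits, T-like cells 8.19% and enteroendocrine-like cells 2.92%. In the highest Apoa4 bin of enterocytes, which by definition have no Ptprc UMI, 8 T markers summed to 14.2 to 19.9 CPM, against 0.296 to 8.27 in the lowest; Trac supplied 141, 25, 37 and 67 UMIs of this while Cd3e had 4, 0, 13 and 0 and Cd2 had 0. The level of Nt5e in that bin was 43.4 to 106, and the part of T cell RNA in it was not tested.

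Slc28a2 also had its highest class average in T-like cells, at 78.1 and 77.0 CPM in libraries 1 and 3 against 4.45 and 12.6 by the yardstick, and B-like cells had 33.9 and 56.7, from 3 UMIs in library 1. Enterocyte-like cells had 31.5, 5.13, 46.2 and 22.8 over the whole class, 659 and 283 in the same clusters. Ada had its highest class average in enterocyte-like cells in each library, at 627, 106, 586 and 459, and these held 89.1% of its UMIs. Macrophage-like cells had 401 and 111 CPM of Ada in libraries 1 and 3, T-like cells 88.6 and 160, and enteroendocrine-like cells 102, 25.5, 558 and 30.2.

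Klf4 had its highest class average in goblet-like cells, at 738, 564, 716 and 718 CPM, against 213, 104, 186 and 172 in enterocyte-like cells. Enteroendocrine-like cells, at 127, 94.5, 215 and 116, overlapped the enterocyte-like class, and stem-like cells were lower at 25.4, 15.5, 23.9 and 21.4. The goblet-like level was above that of the highest Apoa4 bin of enterocytes in libraries 1, 3 and 4 and just under it in library 2. Cells with Apoa4 at 4% and over and Fabp1 under 0.5% had 850, 1039, 731 and 769, above the goblet-like level in each library. The enterocyte-like clusters of 908 and 763 cells had 831 and 748. Enterocyte-like cells held 69.2% of Klf4 UMIs and goblet-like cells 12.3%.

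As an average of the whole class, Egfr was lower in enterocyte-like cells than in 4 other epithelial classes in every library. It was not low in all of them, as the enterocyte-like clusters of 908 and 763 cells had 34.7 and 15.0 CPM. Cells with Apoa4 at 4% and over and Fabp1 under 0.5% had 36.9, 39.4, 42.2 and 45.5. Those were above the goblet-like and enteroendocrine-like levels in each library. Goblet-like cells had 24.99, 18.3, 21.7 and 17.7 CPM and enteroendocrine-like cells 23.9, 25.5, 28.9 and 9.05, and these classes overlapped. Cycling-like cells had 16.4, 11.4, 14.7 and 11.2 and stem-like cells 14.4, 11.6, 13.3 and 10.6, which also overlapped, against 4.43, 2.81, 4.78 and 3.59 in enterocyte-like cells. In T-like cells there were 0 UMIs in 323 cells of library 1, which allows up to 2.42 CPM, and 1.18 CPM in library 3. Enterocyte-like cells held 46.4% of Egfr UMIs, cycling-like cells 14.5%, stem-like cells 12.3% and goblet-like cells 11.1%.

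Pkib was a gene of other classes. Macrophage-like cells had 177 and 176 CPM in libraries 1 and 3, enteroendocrine-like cells 89.9, 24.0, 74.9 and 83.0 in libraries 1 to 4, and B-like cells 79.0 and 56.7. Plasma-like cells had 4.23 and 5.85, and the 17262 enterocyte-like cells held 12 UMIs. Enteroendocrine-like cells, 245 in number, held 39.5% of all Pkib UMIs past the quality limits and macrophage-like cells 28.0%, while enterocyte-like cells held 1.76% of them and 68.5% of all UMIs. An unnamed cluster of 30 cells led by Siglech had 232 CPM.

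**Figure D5:**
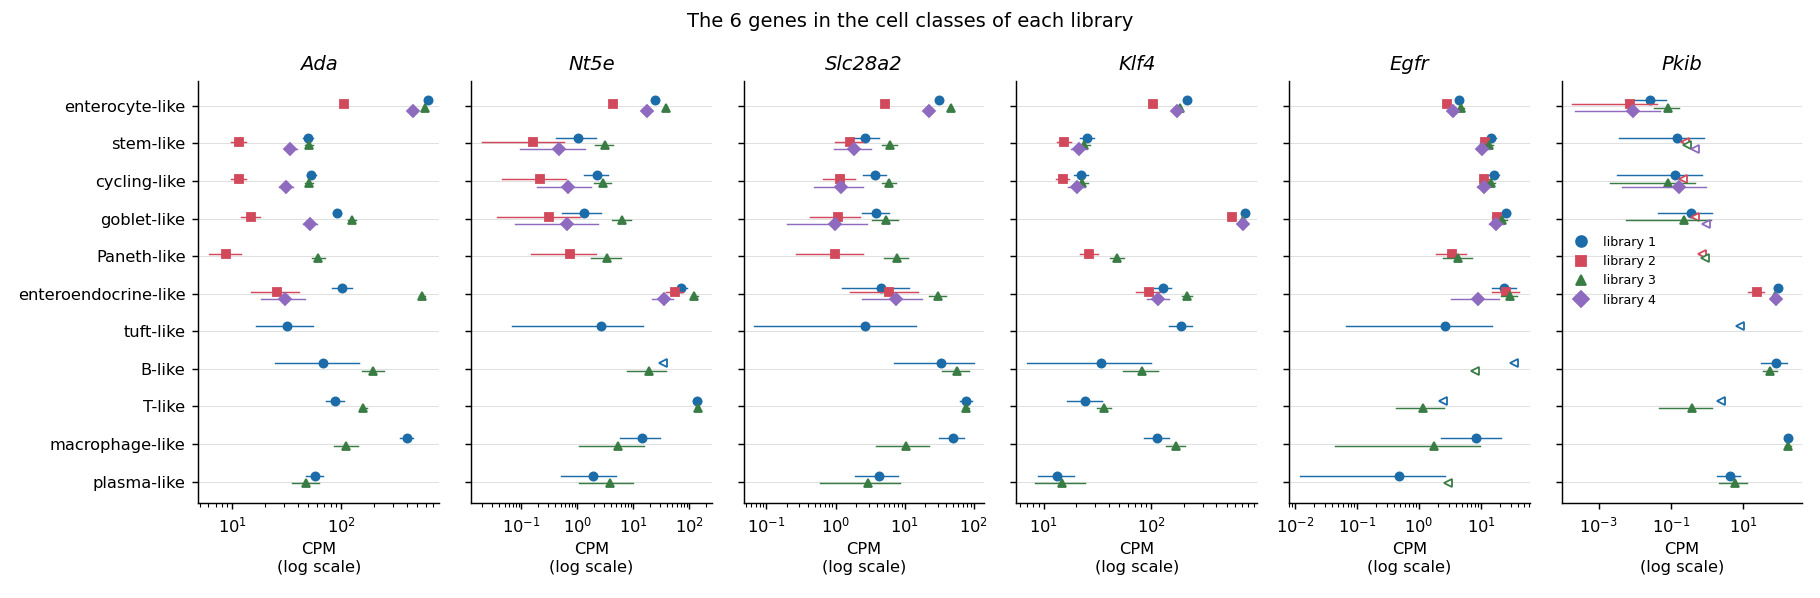
Level of each of the 6 genes (CPM, log scale) by cell class and library, with exact 95% Poisson intervals; open triangles mark the limit of a count of 0 and only classes with at least 20 cells in a library are drawn. T-like cells have the highest class average for Nt5e and Slc28a2, goblet-like cells for Klf4 at 564 to 738, and macrophage-like, enteroendocrine-like and B-like cells for Pkib.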

How the data were processed

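The deposited matrix holds raw UMI counts, 1 whole number for each gene in each barcode, not normalized; the submitters' processing notes name Cell Ranger 6.1.1 and mm10, without their role. The total counts of libraries 1 to 4 were 183971338, 209357877, 178052389 and 173564399 UMIs over all barcodes. Counts were summed over the cells of a bin or class and divided by their total, with exact 95% Poisson intervals for levels and Clopper-Pearson intervals for shares of cells. The matrix pools 4 samples with no map from suffix to sample, so no test of the diets was made and no p-value is given.

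Cells past the quality limits were clustered with scanpy 1.11.5 and leidenalg 0.10.2 at a resolution of 1.0 on 2000 variable genes without the 6 members, after the 6% of cells with the highest Scrublet score in each library were removed, and clusters were named from marker lists. Bins were counted with all cells, doublets included. A gene was called where it was at least 2-fold higher or lower in each of the 4 libraries and had a mean of at least 10 CPM. The scripts were tested on simulated data. The members, the gene lists and the tests were chosen with earlier results of these data known. Genes of other substrates were taken out of 2 lists after their values were seen. The genes named are the 6 members, those of the 9 lists that stand for a step of the route, and the 3 most alike to each member.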

Additional observations from a re-analysis of the deposited data

Results flagged for a closer look

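Barcodes with 25% to 50% mitochondrial UMIs were left out of every level above. Among them, 1385 had Apoa4 at 4% of UMIs and over, 62 to 563 in a library. No Fabp1 limit was set on them, and their median Fabp1 share was 0.278% to 0.479%, so they do not compare with the enterocytes above. Their median over the 4 libraries was 6349 CPM for Ada (5515 to 7716), 407 for Nt5e (303 to 471) and 467 for Slc28a2 (285 to 608). Klf4 was at a median of 595 (532 to 664). A count of 0 would have allowed 0.639 to 6.75 CPM. Barcodes of the same Apoa4 range at 25% or less, also without a Fabp1 limit, had 4988 to 6872 CPM of Ada. They had 234 to 324 of Nt5e, 291 to 382 of Slc28a2 and 555 to 687 of Klf4. In library 4 Ada was lower above 25%, at 5564 against 6872, and so was Slc28a2, at 285 against 345.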

How the results depend on the processing

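The median over libraries of the log2 ratio between the highest and the lowest Apoa4 bin was 7.21 for Ada, 6.60 for Nt5e, 6.50 for Slc28a2, 4.71 for Klf4 and 0.51 for Egfr. With quintiles of Apoa4 in each library it was 5.72 for Ada, 4.73 for Slc28a2, 3.46 for Klf4 and 0.013 for Egfr. With quintiles of a score of other tip and base genes it was 5.66 for Ada and 4.77 for Slc28a2, and it turned to -0.063 for Egfr. With each cell weighted equally it turned to -0.079 for Egfr. With the 0.3 to 1% bin as the lower end it was 2.89 for Klf4 and 1.52 for Egfr. With Fabp1 at 1% and over it was 5.29 for Klf4. With 2 settings added after the data were seen, no Fabp1 limit gave 2.54 for Klf4, and the 2 to 4% bin as the upper end gave 3.47 for Ada, 3.03 for Nt5e, 2.76 for Slc28a2, 4.07 for Klf4 and -0.77 for Egfr. The cause of these shifts was not tested. No Fabp1 limit also changed the ratio of the highest to the lowest library to 7.78 for Nt5e over all cells, against 4.45, and to 1.27 for Ada with equal weights, against 2.09. Ada in macrophage-like cells was 766 and 646 CPM at clustering resolutions of 0.5 and 2.0, where 1 library had enough such cells, against a median of 256.

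The other 159 values stayed within the limit set for their kind. Log2 ratios among them kept their direction and moved by no more than their standard deviation over libraries. That limit was wide where libraries differed: their log2 ratios ran from 3.96 to 10.2 for Nt5e and from 3.74 to 4.82 for Klf4. Staying within it therefore says less for Nt5e. Counts of members, ratios between libraries and class levels were judged by a fixed fold change instead. Lists of most alike genes were judged by how many of the 3 were shared. Without each library in turn the medians were 6.86 to 7.57 for Ada, 6.57 to 6.63 for Nt5e, 6.15 to 6.85 for Slc28a2, 4.64 to 4.79 for Klf4 and 0.39 to 0.63 for Egfr. Over 21 settings 3 to 4 members were called higher, with 3 under the score of other genes, and 3.48% to 15.4% of genes were. That share was 7.58% with quintiles, 7.31% with the score, 6.66% with the 0.3 to 1% bin as the lower end and 3.48% with no minimum level. With log2 levels and 1 CPM added, 1 of the 3 genes most alike to Ada was again among its 3, and 0 for Nt5e and Slc28a2. Nt5e and Slc28a2 were too sparse in the lowest bin for a ratio after thinning. No paired analysis was possible because the matrix carries no sample names and no test was made. Low counts limit Egfr, Pkib and the base levels of Nt5e and Slc28a2.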
